A study of Rattus norvegicus with 29 samples.

Results

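Primary epithelial cells of the rat kidney's proximal tubule, cultured with acetaminophen, were compared between 24 h and 6 h, using 6 of the 29 libraries of the series. These are the libraries labelled APAP T2 (24 h, 3 replicates) and APAP T1 (6 h, 3 replicates). The control libraries, 3 at 24 h and 2 at 6 h, gave the time change of cultures labelled Control. The labels state no dose, vehicle, strain or age and do not say how the replicates were obtained. The p-values therefore reflect the spread among libraries, which may be technical. In such bulk samples, fewer cells of a type and less RNA per cell cannot be told apart. The files list Ensembl transcript identifiers without gene names, and the reference table pairs none of them with a symbol. The labelled cell type could therefore not be checked against its marker genes, and transcripts are described by their behaviour, level and length. The acetaminophen libraries held between 9237441 and 11446612 estimated counts, and 15990 of 28420 transcripts had enough counts to be tested.

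Acetaminophen is an analgesic that cells clear mainly by conjugation to glucuronide or sulfate. A smaller part is oxidised, largely by cytochrome P450 enzymes, to a reactive quinone imine that is captured by glutathione and binds proteins once glutathione runs low. Proximal tubule cells reabsorb solutes with a dense set of transporters, hold P450 enzymes, and are a site of acetaminophen injury in the kidney. A response in such cells can pass, settle into a lasting state or keep growing, and samples at 2 times can separate these courses for each transcript.

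Between 24 h and 6 h of acetaminophen, 6842 transcripts changed, which is 42.8% of those tested: 3407 rose (21.3%) and 3435 fell (21.5%). A change here is a Benjamini-Hochberg adjusted p under 0.05 in edgeR's quasi-likelihood test. The median log2 change was 0.70 among the rises and -0.63 among the falls. More than 2-fold changes comprised 1055 rises and 741 falls, and more than 4-fold changes 297 rises and 158 falls. Among the called transcripts, 97.5% had 3 libraries at 24 h that did not overlap the 3 at 6 h, against 55.5% of all tested transcripts. Few transcripts switched on or off between the times by a strict cut. There were 4 with at least 10 counts in every 24 h library and 0 in all 3 at 6 h, and 6 with the opposite pattern. Without a limit on the other time, 72 of the called transcripts had a rounded count of 0 in all libraries of 24 h or of 6 h.

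The 6 libraries lay apart by time. The first principal component of log2 CPM held 54.2% of their variance and placed the 24 h libraries between -58.2 and -38.2 and the 6 h libraries between 44.6 and 51.3. Replicates were less alike at 24 h, with a median SD of log2 CPM of 0.175, against 0.108 at 6 h. The second component, with 14.6% of the variance, set 24 h replicate 3 at 39.5 and 24 h replicate 2 at -44.9. Those libraries also had the longest and the shortest fragments of the 6, at 275 and 233 bases (transcript length minus effective length), beside 247 to 252 bases at 6 h. A model that also held fragment length called 7201 transcripts. Control libraries had fragments of 270 to 289 bases at 24 h and of 257 and 263 bases at 6 h. Fragment length thus went with time in control, and the 24 h controls were longer on average than the 24 h acetaminophen libraries.

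The balance of rises and falls depended on the scale. The TMM factors that put libraries on a common scale were 1.15 to 1.18 at 24 h and 0.972 to 0.991 at 6 h. With them the median log2 change of all tested transcripts was 0.0238, against 0.28 when libraries were scaled by their totals and 0.307 in TPM with a pseudocount of 1. Rises made up 49.8% of the calls on the TMM scale, 75.9% with scaling by totals and 82.7% with limma on log2(TPM + 1). The log2 changes given here are on the TMM scale and are thus relative to the typical transcript. On all 3 scales together, an intersection chosen after the data were seen, 3364 of the rises (98.7%) and 1368 of the falls (39.8%) were called in their direction. The falls called on every scale were the larger ones, with a median log2 change of -1.0. The other scales shift the changes upward, so rises tend to keep their call and small falls to lose it. These shares therefore do not show that the rises were the firmer calls.

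Transcripts that rose were less abundant and longer than those that fell. TPM gives a transcript's share of all transcripts, corrected for length. The rises had a median of 15.9 TPM at 24 h and 7.38 TPM at 6 h, and a median length of 2479 bases. The falls had a median of 33.1 TPM at 24 h and 40.7 TPM at 6 h, and a median length of 1844 bases. Of the 1580 transcripts that averaged over 100 TPM across the acetaminophen libraries, 820 fell and 128 rose.

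The called transcripts shifted a sizeable part of the message pool. Those that fell held 38.9% to 41.1% of all TPM in the 24 h libraries, against 51.8% to 52.4% in the 6 h libraries. Those that rose held 10.2% to 12.3% at 24 h, against 5.65% to 5.89% at 6 h. The groups did not overlap for either set. The transcripts were chosen by this contrast in these libraries, so the shares describe its size. In control cultures, which had no part in the choice, the same falling set held 48.0% to 50.2% at 24 h, against 51.5% and 51.6% at 6 h. The same rising set held 7.45% to 8.35% in 24 h controls, against 6.81% and 6.96% in 6 h controls. The controls thus moved the same way by a smaller amount.

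The relation to level and length was also present without acetaminophen. Transcripts were split into 5 equal bins by mean TPM. In the lowest bin, the median log2 change between 24 h and 6 h was 0.35 with acetaminophen and 0.26 in control. In the highest bin, from 50.3 TPM upward, it was -0.24 with acetaminophen and -0.21 in control. Of that highest bin, 43.9% fell and 11.7% rose with acetaminophen, while 31.4% fell and 7.79% rose in control. By length, transcripts under 500 bases had a median of -0.16 with acetaminophen and -0.16 in control. Those of 4000 bases or more had 0.17 with acetaminophen and 0.26 in control. The likeness of the medians held on the TMM scale only. With scaling by totals, transcripts under 500 bases had 0.07 with acetaminophen and -0.13 in control, and the longest had 0.43 and 0.29. With limma on log2(TPM + 1) the shortest had 0.17 with acetaminophen and 0.02 in control, and the longest had 0.39 and 0.29. With fragment length as a covariate the medians of the longest transcripts were 0.13 with acetaminophen and 0.16 in control, and those of the shortest were -0.18 with acetaminophen and -0.02 in control.

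**Figure D1:**
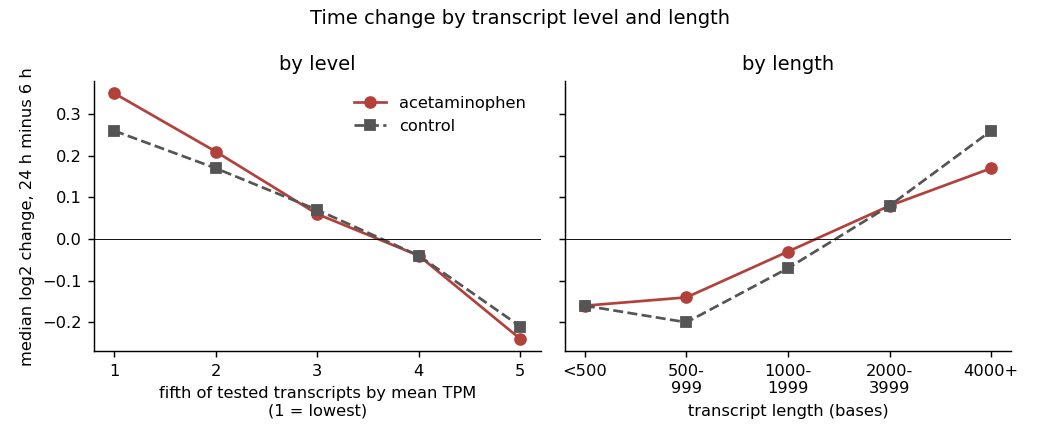
Median log2 change between 24 h and 6 h (vertical axis, edgeR fit with TMM factors) in 5 bins of mean TPM over the acetaminophen libraries (left) and by transcript length in bases (right), for acetaminophen (circles) and control (squares). Both lines run downward with level, from 0.35 and 0.26 in the lowest bin to -0.24 and -0.21 in the highest. By length both run upward from 1000 bases on, while the control line first goes from -0.16 under 500 bases to -0.20 at 500 to 1000 bases.

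The time change with acetaminophen was then set against that of control cultures, which share no library with it. Controls changed 3985 transcripts between the times, 24.9% of those tested. Of the acetaminophen rises, 688 also rose in control, which is 20.2% of the acetaminophen list and 34.9% of the control list. Of the falls, 876 also fell in control, 25.5% of the acetaminophen list and 43.5% of the control list. The background shares in control were 12.3% for rises and 12.6% for falls. Across the 15990 transcripts, the log2 time changes with acetaminophen and in control had a Pearson r of 0.22, a description only, since transcripts of 1 library share its depth and composition.

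The difference between both time changes was tested directly. It passed for 4139 transcripts, 25.9% of those tested. More positive changes with acetaminophen made up 48.3% of these calls on the TMM scale. They made up 73.7% of the calls with scaling by totals and 74.9% with limma on log2(TPM + 1). Which direction prevailed thus depended on the scale, and the shares that follow are on the TMM scale. Among the acetaminophen rises, 1482 (43.5%) rose more than in control, against 12.5% of all transcripts with a more positive change, and 642 of these by a further 2-fold or more. Among the falls, 1663 (48.4%) fell more than in control, against 13.4% of all transcripts with a more negative change, and 597 of these by a further 2-fold or more. The time change with acetaminophen enters both tests, so these shares describe the overlap of the lists. Of the acetaminophen rises, 223 (6.55%) fell in control, where 12.6% of all transcripts fell. Of the acetaminophen falls, 313 (9.11%) rose in control, where 12.3% of all transcripts rose. All of these passed the test of the difference, which opposite calls in the same model make nearly certain. By contrast, 597 rises and 688 falls were called the same way in control and did not pass the test of the difference.

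**Figure D2:**
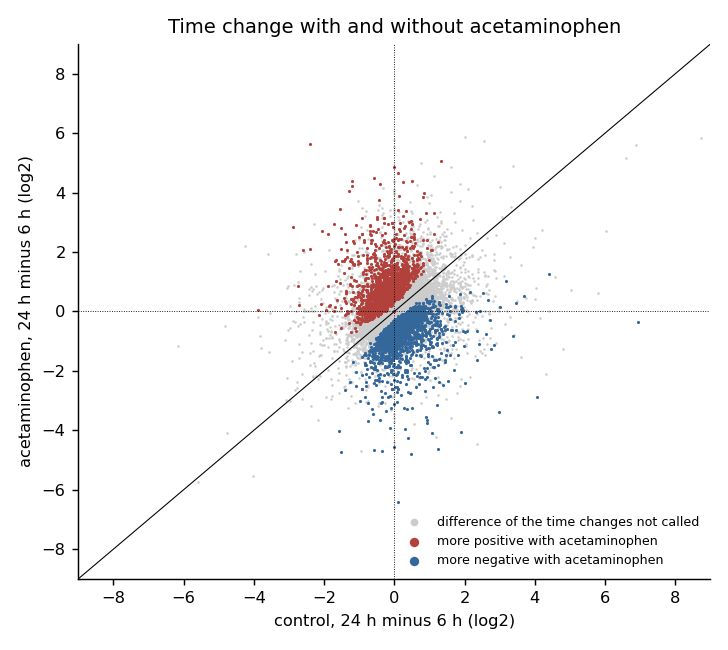
Log2 change between 24 h and 6 h for each of 15990 tested transcripts with acetaminophen (vertical axis) and in control (horizontal axis), with the line of equal change; a group without any count is set at 3 counts per library. Colour marks the 4139 transcripts whose time changes differed between the cultures, above the line where acetaminophen was the more positive and below it where it was the more negative.

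Cultures with other compounds gave a second point of comparison. Gentamicin, TCDD and trichloroethylene cultures changed 51.8%, 63.7% and 47.5% of tested transcripts between the times. Of the acetaminophen rises, 35.1% also rose with gentamicin, where 25.3% of all transcripts did, and 38.0% also rose with trichloroethylene, against 24.5%. With TCDD the share was 38.9%, against 32.5% of all transcripts. Of the falls, 38.5% also fell with gentamicin, against 26.5% of all transcripts, 38.5% with TCDD, against 31.3%, and 36.1% with trichloroethylene, against 23.1%. Opposite calls with TCDD were about as common as among all transcripts. There 31.1% of the acetaminophen rises fell, against 31.3% of all, and 33.8% of the falls rose, against 32.5%. With gentamicin 23.0% of the rises fell, against 26.5%, and 22.8% of the falls rose, against 25.3%. With trichloroethylene 18.3% of the rises fell, against 23.1%, and 22.3% of the falls rose, against 24.5%. A set of 98 transcripts rose and 131 fell between the times in all 5 kinds of culture. With acetaminophen, 974 rises and 885 falls were called in their direction in none of the other 4 kinds. Shares of all tested transcripts with these patterns were not computed, so the counts do not mark sets particular to acetaminophen. Whether the time changes of the 974 and the 885 differed from those with the other compounds was not tested.

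To describe what moved on, recovered or reversed, each transcript was classed by 3 contrasts of the same model. They were acetaminophen against control at 24 h, with 59.4% of transcripts called (30.3% above and 29.2% below), acetaminophen against control at 6 h, with 48.8% called (24.2% above and 24.5% below), and the direct comparison of the times. Of the 7799 transcripts called at 6 h, 1257 (16.1%) moved on, changing further in the same direction and lying beyond control at 24 h. A larger group of 2954 (37.9%) was held, off control on the same side at both times with no call between them, which does not show that the levels were equal. Those that turned back between the times fell into 3 classes. There were 1463 (18.8%) called partly recovered, which turned back within the acetaminophen cultures and were still called on the same side of control at 24 h, 897 (11.5%) that recovered to a level not told apart from the 24 h controls, and 333 (4.27%) that reversed to the other side. A further 1657 transcripts were late, with no call at 6 h and a change toward 24 h that took them off control. Another 1090 changed between the times and were called against control at neither. The other tested transcripts comprised 3643 with no call in any of the 3 contrasts and 2696 with remaining patterns, 1702 of them called at 24 h alone. The classes go by the direction of change within the acetaminophen cultures, and the distance from control also depends on how control moved. The 6 h acetaminophen libraries enter both the 6 h contrast and the time contrast, so chance error in them favours turning back over moving on. The tested difference of the time changes equals the difference from control at 24 h minus that at 6 h. It thus shares its contrasts with the choice of the classes, and its shares within a class describe that class.

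**Figure D3:**
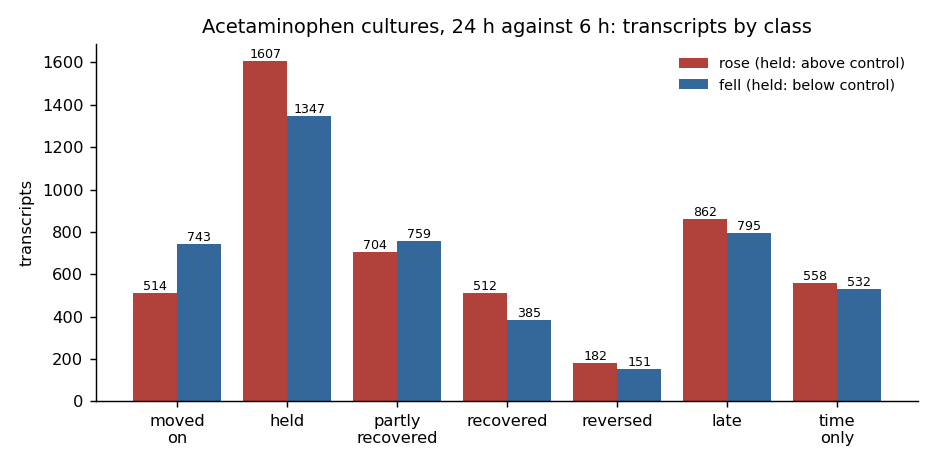
Number of tested transcripts (vertical axis) in each class of the acetaminophen time course, split by direction between 24 h and 6 h, or by side of control for the held class. Of the 7 classes drawn, which leave out transcripts without a call and those with remaining patterns, the held class is the largest, with 1607 transcripts above and 1347 below control, and the reversed class the smallest, with 182 that rose and 151 that fell.

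The moved-on transcripts comprised 514 that rose and 743 that fell between the times. Of these 1257, 1145 lay farther from control at 24 h than at 6 h and 112 lay nearer, by the fitted log2 difference. The rising ones had a median log2 difference from control of 1.37 at 24 h and 0.79 at 6 h. The falling ones had -1.32 at 24 h and -0.65 at 6 h, and their median level with acetaminophen was 25.3 TPM at 24 h and 33.2 TPM at 6 h, against 58.7 TPM in 24 h controls and 54.7 TPM in 6 h controls. The test of the difference between acetaminophen and control time changes passed for 195 of the moved-on rises (37.9%) and 447 of the moved-on falls (60.2%). Of all tested transcripts, 12.5% passed upward and 13.4% downward, and the choice of the class enters the class shares. Controls changed in the same direction for 108 of the rises and 159 of the falls. With total counts as the scale the class held 1059 rises and 448 falls, so which direction prevailed depended on the scale.

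The partly recovered transcripts comprised 704 that rose back and 759 that fell back. Those that rose back had a median log2 difference from control of -0.77 at 24 h and -1.20 at 6 h, and those that fell back had 0.81 at 24 h and 1.17 at 6 h. By the fitted difference, 1232 of the 1463 lay nearer to control at 24 h than at 6 h and 230 lay farther from it. Controls changed in the same direction for 234 of those that rose back and 252 of those that fell back. The test of the difference between the time changes passed for 251 (35.7%) and 270 (35.6%). For most of the class the time change was thus not told apart from that of control. The most abundant one that fell back, 339 bases long and chosen after its values were seen, had a log2 time change of -0.74 ± 0.15 with acetaminophen and -0.86 ± 0.17 in control. It lay 0.79 above control at 24 h and 0.67 above it at 6 h.

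The recovered transcripts comprised 512 that rose back and 385 that fell back. Those that rose back had a median log2 difference from control of -0.04 at 24 h and -0.77 at 6 h, with the middle 50% at 24 h between -0.19 and 0.10. Those that fell back had 0.03 at 24 h and 0.66 at 6 h, with the middle 50% at 24 h between -0.08 and 0.16. The median log2 time change of the controls was 0.02 in the first of these sets and -0.01 in the second. The test of the difference passed for 330 of those that rose back (64.5%) and 265 of those that fell back (68.8%). Of all transcripts, 12.5% passed upward and 13.4% downward. The class was chosen by a call at 6 h and none at 24 h, so high shares follow in part from that choice. With total counts as the scale 881 rose back and 188 fell back, and 305 and 71 kept their class on all 3 scales.

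The reversed transcripts comprised 182 that rose and 151 that fell. The rising ones had a median log2 difference from control of 0.61 at 24 h and -0.60 at 6 h, and a median level of 22.8 TPM at 24 h and 9.85 TPM at 6 h with acetaminophen. Their controls stood at 13.2 TPM at 24 h and 14.5 TPM at 6 h. The falling ones had -0.46 at 24 h and 0.50 at 6 h. Controls moved opposite to acetaminophen for 54 of the rises and 54 of the falls, and in the same direction for 7 and 22. On all 3 scales, 148 of the reversed rises (81.3%) and 26 of the reversed falls (17.2%) kept their class. The upward shift of the other scales favours rises in such a count.

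The late transcripts held the largest number of changes over 4-fold of any class, with 117 of 862 rises and 66 of 795 falls. The late rises had a median log2 difference from control of 0.84 at 24 h and 0.03 at 6 h. Late falls had a median of 34.0 TPM at 24 h and 43.2 TPM at 6 h with acetaminophen, near the 33.1 and 40.7 TPM of all falls. Together the late falls held a mean of 9.99% of TPM at 24 h and 14.5% at 6 h with acetaminophen. In controls they held 15.3% at 24 h and 15.6% at 6 h. The 532 transcripts that fell between the times and differed from control at neither had the shortest median length of these classes, 1227 bases. They held a mean of 15.3% of TPM at 24 h and 18.6% at 6 h with acetaminophen, and 15.3% at 24 h and 18.1% at 6 h in control. Their median log2 time change was -0.59 with acetaminophen and -0.46 in control. On all 3 scales, 822 of the late rises (95.4%) and 287 of the late falls (36.1%) kept their class. Of the transcripts that differed from control at neither time, 332 of the rises (59.5%) and 123 of the falls (23.1%) did so. The upward shift of the other scales favours rises here too.

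**Figure D4:**
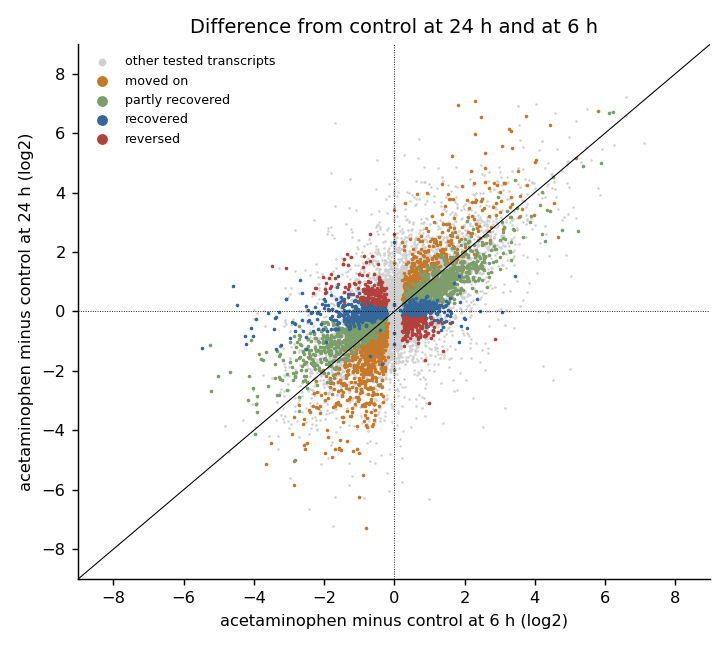
Log2 difference between acetaminophen and control at 24 h (vertical axis) and at 6 h (horizontal axis) for each tested transcript, from separate libraries, with the line of equal difference; a group without any count is set at 3 counts per library. Of the moved-on transcripts 91.1% lie farther from 0 at 24 h than at 6 h, of the partly recovered ones 84.2% lie nearer to 0, and recovered ones lie near 0 on the vertical axis, with reversed ones in the quadrants of opposite sign.

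Among strong early changes, the held share was larger above control and the shares of both recovery classes were larger below it. Of the 574 transcripts called and at least 4-fold above control at 6 h, 55.1% were held, 23.5% were partly recovered and 1.05% recovered. Of the 367 at least 4-fold below control at 6 h, 33.8% were held, 36.5% were partly recovered and 12.8% recovered. The median log2 difference from control of the first set was 2.50 at 24 h and 2.68 at 6 h, and that of the second set was -1.76 at 24 h and -2.49 at 6 h. Recovery or reversal was commoner among small early changes above control: under 1.5-fold, 15.9% recovered and 8.82% reversed, while 9.01% were partly recovered. Under 1.5-fold below control, 13.7% recovered and 7.36% reversed, while 5.82% were partly recovered. A small early difference needs only a small change to lose its call or change side, so the class rule itself favours this pattern. The sets were picked by their 6 h values, which favours medians nearer to control at 24 h. On the scale of total counts, 0.653% of the strong early rises and 20.0% of the strong early falls had recovered, and with limma on log2(TPM + 1) the shares were 1.37% and 5.36%. These 2 comparisons of scale were chosen after the data were seen and count the fitted changes as they are. The difference between the sides has no test of its own.

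The transcripts printed by identifier are 4, those with the largest time change in 4 of the classes among transcripts with at least 10 counts in every acetaminophen library and a mean of at least 10 TPM. ENSRNOT00000058062, 665 bases long, led the 375 moved-on rises that met this limit. It had 27.3, 32.9 and 15.3 TPM at 24 h, against 3.69, 4.12 and 4.37 TPM at 6 h with acetaminophen. Controls had 1.93, 1.03 and 0.938 TPM at 24 h and 0.852 and 1.35 TPM at 6 h. Every 24 h library lay above every 6 h library, and both acetaminophen groups lay above both control groups. The log2 change between the times was 2.28 ± 0.45 (SE; edgeR adjusted p = 0.00021), a 4.87-fold rise. The control counts were only 3 to 5 per library, and without control replicate 2 at 6 h the early difference from control did not pass (log2 difference 1.66, edgeR adjusted p = 0.098). The difference of the time changes was 2.28 ± 0.82 (edgeR adjusted p = 0.043). Of 11 refits that each left out 1 library, 9 lost this call, with edgeR adjusted p from 0.058 to 0.23. The exceptions were those without acetaminophen replicate 3 at 24 h or control replicate 1 at 24 h. Between the times this transcript also rose with TCDD (log2 change 2.87 ± 0.63, edgeR adjusted p = 0.00034) and with trichloroethylene (1.80 ± 0.61, adjusted p = 0.017).

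ENSRNOT00000015680, 1119 bases long, had the largest rise among the 112 reversed ones that met the limit. It had 23.2, 24.4 and 24.2 TPM at 24 h, against 2.77, 3.28 and 3.64 TPM at 6 h with acetaminophen. Controls lay between these levels, at 10.7, 9.83 and 12.4 TPM at 24 h and 6.34 and 7.13 TPM at 6 h. No group overlapped another. The time change was 2.52 ± 0.24 (edgeR adjusted p = 8.5e-09), and it exceeded that of control by 1.97 ± 0.35 (adjusted p = 0.00016). The log2 difference from control was 0.97 ± 0.22 at 24 h (adjusted p = 0.00051) and -1.0 ± 0.27 at 6 h (adjusted p = 0.0038). With gentamicin it fell between the times (-0.76 ± 0.26, edgeR adjusted p = 0.016).

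ENSRNOT00000005851, 1956 bases long, had the largest fall of the 575 moved-on falls that met the limit. It stood at 3.03, 1.40 and 1.62 TPM at 24 h, against 44.8, 45.0 and 40.4 TPM at 6 h with acetaminophen. Controls had 158, 130 and 130 TPM at 24 h and 93.9 and 88.1 TPM at 6 h. The acetaminophen libraries lay below the controls at both times and did not overlap between the times. The log2 time change was -4.79 ± 0.16 (edgeR adjusted p = 4.8e-17), a 27.6-fold fall, and the difference from the control time change was -5.25 ± 0.21 (adjusted p = 1.1e-14). In control it rose by 0.46 ± 0.12 (edgeR adjusted p = 0.0091), a call lost without control replicate 3 at 6 h (0.40, adjusted p = 0.10), without control replicate 1 at 24 h (0.38, adjusted p = 0.058) or with fragment length as a covariate (0.35, adjusted p = 0.073). With TCDD the transcript also fell between the times (-0.74 ± 0.11, edgeR adjusted p = 2.7e-06). Its changes with gentamicin (-0.23 ± 0.11) and trichloroethylene (-0.02 ± 0.11) were not called. Its estimated count was a whole number in 1 of the 29 libraries, so the authors' tool divided reads between it and other transcripts, and its level is uncertain to that extent.

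ENSRNOT00000075069, 693 bases long, had the largest fall of the 329 recovered falls that met the limit. It had 4.22, 6.39 and 4.87 TPM at 24 h, against 23.0, 17.6 and 13.8 TPM at 6 h with acetaminophen. Controls had 9.36, 5.13 and 6.56 TPM at 24 h and 7.18 and 3.29 TPM at 6 h. The 24 h acetaminophen libraries overlapped the 24 h controls, while the 6 h acetaminophen libraries lay above both 6 h controls. The log2 time change was -2.20 ± 0.39 (edgeR adjusted p = 7.1e-05). The difference from control was -0.51 ± 0.46 at 24 h (adjusted p = 0.36) and 1.89 ± 0.44 at 6 h (adjusted p = 0.00096). The time change differed from that in control by -2.40 ± 0.64 (edgeR adjusted p = 0.0072), or by -1.92 (adjusted p = 0.057) without control replicate 3 at 6 h. Its estimated count was whole in 18 of the 29 libraries, so its reads too were in part divided with other transcripts. With gentamicin the transcript rose between the times, by 2.66 ± 0.28 on the log2 scale.

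**Figure D5:**
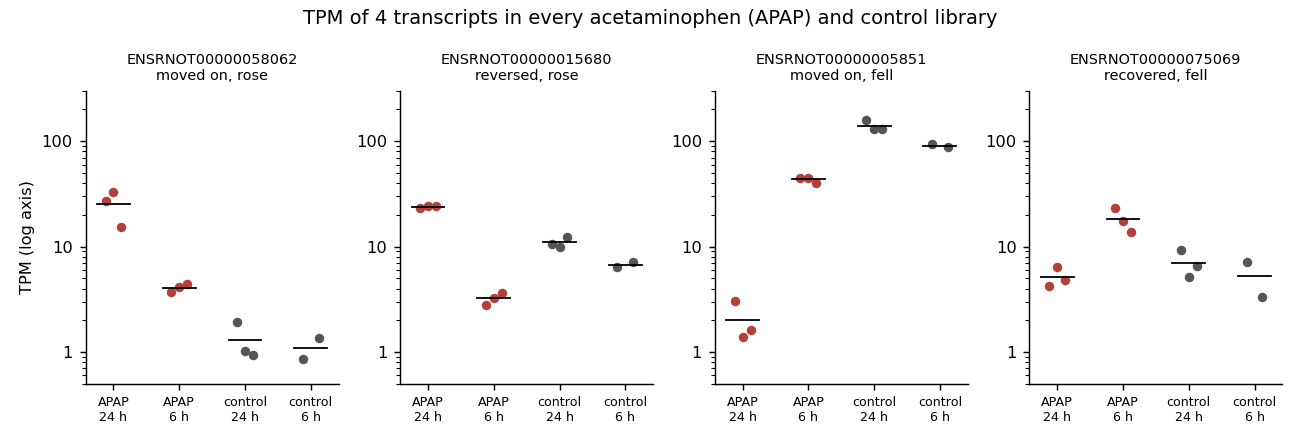
TPM (log axis) of the 4 transcripts in each library, with acetaminophen (APAP) at 24 h and 6 h and control at 24 h and 6 h; points are libraries and bars are group means. ENSRNOT00000015680 lies above the controls at 24 h and below them at 6 h, and ENSRNOT00000075069 overlaps the controls at 24 h and lies above them at 6 h.

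At high expression, the most abundant transcript of a class followed the course of its class with differing clarity. These transcripts were chosen after their values were seen and are given by class and length. The most abundant moved-on rise, 703 bases long, had 6161, 6180 and 5658 TPM at 24 h, against 3074, 3108 and 3036 TPM at 6 h with acetaminophen. Controls had 1072, 1110 and 1077 TPM at 24 h and 1411 and 1435 TPM at 6 h, so that control moved downward. Its log2 time change was 0.59 ± 0.10 (edgeR adjusted p = 4.2e-05), against -0.59 ± 0.11 in control (adjusted p = 0.00073). The most abundant moved-on fall, 1267 bases long, had a log2 time change of -0.68 ± 0.10 with acetaminophen and -0.58 ± 0.11 in control. The difference between these changes was -0.11 ± 0.15 and did not pass (edgeR adjusted p = 0.65). Its log2 difference from control was -0.78 at 24 h and -0.67 at 6 h.

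The most abundant recovered fall, 1276 bases long, had 2082, 2301 and 1821 TPM at 24 h, against 3211, 3411 and 3308 TPM at 6 h with acetaminophen. Controls had 1641, 1929 and 2070 TPM at 24 h and 2485 and 2476 TPM at 6 h. The transcript fell in both kinds of culture, with a log2 change of -1.04 ± 0.15 with acetaminophen (edgeR adjusted p = 5.7e-06) and -0.56 ± 0.17 in control (adjusted p = 0.018). The difference between these changes was -0.48 ± 0.23 and did not pass (adjusted p = 0.13).

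The most abundant late rise, 453 bases long, had 842, 1033 and 635 TPM at 24 h, against 259, 244 and 279 TPM at 6 h with acetaminophen. Controls had 112, 82.4 and 126 TPM at 24 h and 189 and 149 TPM at 6 h. The groups of the acetaminophen cultures did not overlap, and the log2 time change was 1.32 ± 0.26 (edgeR adjusted p = 0.00028). At 6 h it was not called against control (log2 difference 0.74 ± 0.31, adjusted p = 0.051), though all 3 acetaminophen libraries lay above both controls.

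The most abundant reversed fall, 1143 bases long, shows how far such a call can rest on the scale. It had 6256, 5044 and 7642 TPM at 24 h, against 5924, 5754 and 5961 TPM at 6 h with acetaminophen, and these groups overlap. In TPM, 24 h replicates 1 and 3 lay above every 6 h library and replicate 2 below them. Relative to the typical transcript its log2 time change was -0.29 ± 0.09 (edgeR adjusted p = 0.012). Controls had 7540, 7223 and 6279 TPM at 24 h and 4788 and 4956 TPM at 6 h.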

How the data were processed

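RNA of 29 libraries was analysed. Quantification was with kallisto 0.43, per the submitters' processing notes. Each deposited table lists estimated counts and TPM by transcript, per the file headers. Transcript set and strand setting were not given in the sources used here. For tests, the authors' estimated counts (20.0% of values not whole) were rounded. Transcripts were kept by filterByExpr at a minimum count of 10 (15990 of 28420, with 99.95% of counts), scaled with TMM factors and fitted with edgeR 4.0.16 (R 4.3.3), 1 robust quasi-likelihood model with a coefficient for each of 10 groups (19 residual degrees of freedom). Calls are at a Benjamini-Hochberg adjusted p under 0.05. An SE is the log2 change divided by the square root of F. A group with no count was set at 3 counts per library, a lower bound. This applied to medians of classes, rises and falls, distances from control, and counts by fold of the time or early change. The further 2-fold counts of the difference test, medians by length and values compared between scales are fits without it. Classes follow from the calls in 3 contrasts. Library totals ran from 8243698 to 11446612, and the median SE of the time change was 0.156. No pair of replicates agreed within sampling noise: over the 28 pairs in the 10 groups, chi-square per degree of freedom was 2.98 to 28.3. Among tested transcripts, 167 had the same counts as another in all libraries. Alternatives were DESeq2 1.42.0, limma 3.58.1 on log2(TPM + 1), other scalings, filters and covariates, and leaving out each library. The steps were tested on simulated counts. The rule for named transcripts gives 4 identifiers, 2 that rose and 2 that fell, each with the largest time change in its class. The members and lists were chosen with earlier results of these data known. The gene lists and cell type markers listed in advance need gene names and were not used.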

Additional observations from a re-analysis of the deposited data

Results flagged for a closer look

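The acetaminophen time change differed from that of control in 4139 transcripts, by edgeR's test of the difference of both time changes. All 4 transcripts given by identifier are among them. The log2 difference, acetaminophen minus control, was 2.28 for ENSRNOT00000058062, 1.97 for ENSRNOT00000015680, -5.25 for ENSRNOT00000005851 and -2.40 for ENSRNOT00000075069. The first of these did not pass with DESeq2 (adjusted p = 0.055), without the filter on low counts (edgeR adjusted p = 0.058) or with fragment length as a covariate (adjusted p = 0.088), nor in 9 of 11 refits that each left out 1 library.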

How the results depend on the processing

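Over 20 alternatives each, 116 of 120 recomputed counts stayed within 1.5 times the reported one, and all 4 named transcripts kept the direction and the call of their time change in 80 of 80 refits. The exceptions all concern the 3985 transcripts called in control between the times. That count was 2262 with fragment length as a covariate, and between 1655 (without control replicate 2 at 6 h) and 4303 (without control replicate 3 at 24 h) when libraries were left out. It was 1833 without control replicate 3 at 6 h and 2118 without control replicate 1 at 24 h. The class totals add both directions, and a like total can hold different transcripts. With scaling by totals, 928 of the 1257 moved-on, 492 of the 897 recovered and 237 of the 333 reversed transcripts kept their class. With limma on log2(TPM + 1) these were 710, 465 and 181. With fragment length as a covariate they were 1194, 707 and 231, and with DESeq2 1228, 833 and 320. Leaving out 1 library gave between 5761 and 6891 acetaminophen calls. With the replicate number as a block 6711 transcripts were called, and the block changed no call of the 4 transcripts between the times. Same-numbered libraries of 24 h and 6 h correlated in their deviations at 0.0165, 0.0243 and 0.0225, so the numbers were not taken to pair them. Only 2 controls at 6 h limit every 6 h contrast.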
